A study of Mus musculus with 40 samples.

Results

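The growth hormone axis of the liver was followed through 10 genes, chosen by symbol: the receptor Ghr, its signal transducer Stat5b, the secreted products Igf1, Igfals and Igfbp1, the feedback inhibitors Socs2 and Cish, and the major urinary protein genes Mup3, Mup20 and Mup21. All 10 were found among the 55487 genes of the count table, and all 10 passed the filter on low counts, which left 20297 genes. The libraries came from whole livers of female C57BL/6JBomTac mice, 1 mouse per library. Hepatocyte-specific Nampt knockout (HNKO) mice were Nampt fl/fl with Alb-Cre+/-, in which the albumin promoter drives Cre, so that only cells using this promoter are targeted. WT mice were floxed littermates, so the controls carried floxed alleles too. All mice had eaten a fortified breeding chow from weaning and were moved to a purified control diet (PD) at 9 weeks of age for 3, 6, 12 or 21 days, and the comparison asks how HNKO livers differed from WT livers along this feeding. The labels list these days as age, whereas the methods describe them as days of PD. There were 5, 4, 5 and 5 WT libraries and 5, 5, 6 and 3 HNKO libraries at days 3, 6, 12 and 21, which makes 38. A further 2 HNKO libraries of day 21 failed the quality control of the study and were kept out of all tests.

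In the liver, growth hormone binds its receptor, which activates the kinase JAK2, and JAK2 phosphorylates STAT5B. STAT5B then enters the nucleus and drives Igf1, the main source of circulating IGF1, together with Igfals, Socs2 and Cish. The rhythm of growth hormone secretion, pulsatile in male and more continuous in female rodents, sets the sex difference of many liver genes, and the major urinary proteins, small carriers of pheromones, are secreted by hepatocytes and are more abundant in males.

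Total counts per library ranged from 16151037 to 64181492 (median 26466478.5). Nampt, the targeted gene, differed by -0.93, -0.90, -0.82 and -0.69 log2 units between HNKO and WT at days 3, 6, 12 and 21, and the difference at day 21 did not pass the threshold (edgeR quasi-likelihood test, adjusted p = 0.161). Reads from undeleted exons and from other cells still count toward Nampt. None of the 12 hepatocyte markers was at 0 in any library. Their summed level lay between 16.84 and 17.42 log2 CPM (counts scaled to the size of the library) in the 19 WT libraries and between 16.16 and 17.18 in the 19 HNKO libraries. Summed markers of cholangiocytes and oval cells did not overlap between the genotypes, with 6.08 to 7.14 log2 CPM in WT and 7.56 to 9.75 in HNKO. Those of leukocytes ranged from 7.54 to 8.71 in WT and from 7.96 to 9.53 in HNKO, and those of stellate and endothelial cells from 9.01 to 9.34 and from 9.03 to 10.33. Each sum adds CPM, so its most abundant genes weigh most. At day 21, Alb averaged 16.46 log2 CPM in WT, where the hepatocyte sum averaged 17.11. Among the cholangiocyte and oval cell markers, Cdh1 and Spp1 averaged 5.91 and 5.15 in WT and 6.40 and 7.85 in HNKO at that day. In RNA from whole liver, fewer cells of a type and less RNA per cell cannot be told apart, which applies to every value below.

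Mup20, which encodes the pheromone darcin, was higher in HNKO livers at each of the 4 days, by 7.36-fold to 23.6-fold, while Ghr and Stat5b were lower by 0.31 and 0.30 log2 units on the mean of the 4 days. The other 7 genes did not pass the threshold between the genotypes. Genes were called at an adjusted p under 0.05 in edgeR's quasi-likelihood test over all 20297 genes. At day 3, 1 of the 10 genes was called higher, against 2.95% of all tested genes, and 0 lower, against 1.71%. The counts were again 1 higher and 0 lower on each of the later days. Among all tested genes, those called higher made up 8.42%, 4.56% and 2.21% at days 6, 12 and 21, and those called lower made up 4.37%, 3.27% and 0.916%. At an unadjusted p under 0.05 there were 3, 3, 2 and 1 of the 10 genes, Mup20 included, beside 4235, 5405, 4965 and 3655 of all 20297, and DESeq2 called 1 gene more at day 3 (Cish) and 1 more at day 6 (Ghr), both lower. For the mean of the within-day differences, 1 gene was higher and 2 were lower, against 19.2% and 17.3% of all genes. The 2 lower genes, Ghr and Stat5b, are thus near the share of all genes. On the same mean, the 12 hepatocyte markers had a median log2 fold change of -0.33. The median log2 fold change of the 10 genes was -0.33, -0.01, -0.14 and 0.11 at the 4 days, beside 0.01, -0.01, 0.00 and -0.01 over all tested genes.

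**Figure D1:**
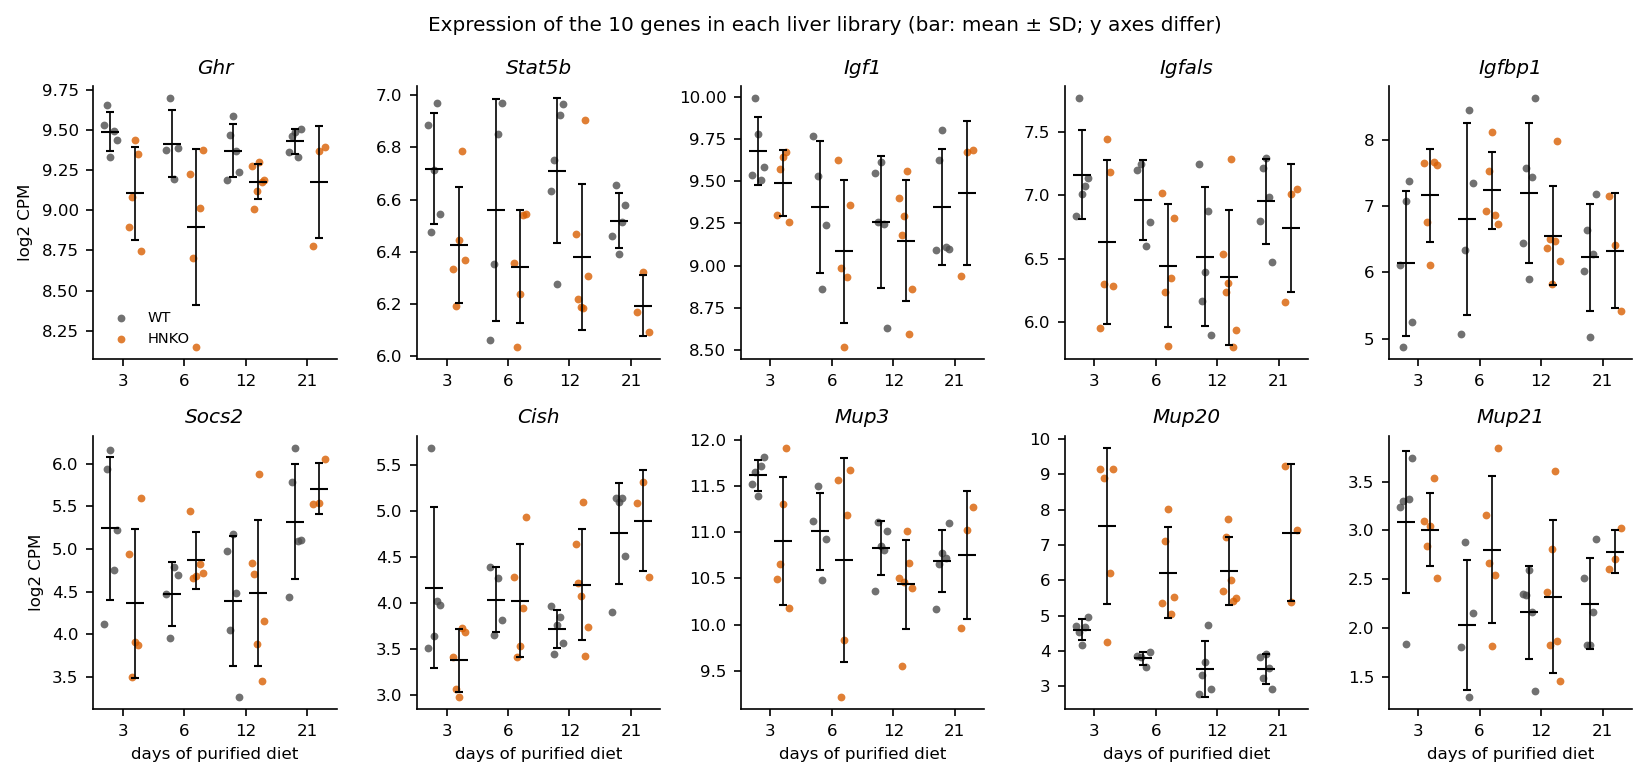
Level of each of the 10 genes in the 38 libraries as log2 CPM, by day of PD feeding, with 1 point per library, WT and HNKO side by side, bars for the group mean ± SD, and a y axis of its own for each gene. Mup20 is the gene whose HNKO libraries lie apart from WT at days 6, 12 and 21, while at day 3 one HNKO library, at 4.26, lies among the WT libraries.

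The genes differed widely in abundance. Per kb of merged exons, Mup3 had a median of 1944 CPM over the 19 WT libraries (1076 to 3388), Ghr 76.5, Igf1 74.6 and Igfbp1 56.9 (19.2 to 259). Below these came Igfals at 39.9, Stat5b at 17.9, Mup20 at 15.3 (7.33 to 33.3), Mup21 at 7.37, Socs2 at 2.88 and Cish at 2.42 CPM per kb. Mup3 lay above every other gene in all WT libraries, while the ranges of all later neighbours in this order overlapped. In the 19 HNKO libraries, Mup3 was again first at a median of 1510 CPM per kb, and Mup20 stood second at 78.7 (20.6 to 652), above Igfbp1 at 71.3, Ghr at 63.8 and Igf1 at 63.6. Divided by the longest transcript instead, Ghr at 138 and Igf1 at 89.3 CPM per kb stood above Mup20 in HNKO, so the second place of Mup20 depended on the length used.

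Ghr (ENSMUSG00000055737.12, chr15:3317760-3583492, minus strand, GRCm38) encodes the growth hormone receptor. At day 3, its levels were 9.53, 9.65, 9.33, 9.49 and 9.44 log2 CPM in WT and 8.90, 9.08, 9.44, 9.35 and 8.75 in HNKO. At day 6, they were 9.38, 9.70, 9.19 and 9.39 in WT and 9.23, 8.71, 8.15, 9.02 and 9.37 in HNKO. The HNKO libraries reached lower than any WT library at both days, but the highest of them overlapped WT. At day 12, WT livers had 9.19, 9.47, 9.59, 9.37 and 9.24, and the 6 HNKO livers ranged from 9.01 to 9.30 with a median of 9.18. At day 21, WT livers had 9.36, 9.46, 9.49, 9.33 and 9.50, and HNKO livers had 8.78, 9.37 and 9.39. A single HNKO library, number 37, was low at day 21, and the other two lay within the WT range.

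The log2 fold changes of Ghr were -0.37 (SE 0.15), -0.47 (SE 0.16), -0.20 (SE 0.15) and -0.23 (SE 0.18) at days 3, 6, 12 and 21, none past the threshold in edgeR's test (adjusted p = 0.162, 0.0520, 0.433 and 0.552). The value at day 6 was called in DESeq2, with edgeR's newer computation, with the clock gene score, and without HNKO library 4, 6 or 31 or WT library 27 (edgeR adjusted p = 0.0469, 0.0279, 0.0126 and 0.0442 for these libraries), but was -0.30 without HNKO library 29. At day 21 it was -0.03 without HNKO library 37. On the mean of the 4 days Ghr was lower in HNKO by -0.31 log2 units (SE 0.08, 95% interval -0.48 to -0.15, edgeR adjusted p = 0.00243). Exact two-sided permutation tests of each day gave p = 0.0397, 0.0873, 0.0455 and 0.107, where the smallest p that the group sizes allow was 0.00794, 0.00794, 0.00216 and 0.0179. Within the library numbers 1 to 21 and 22 to 41, which each span several days, Ghr was lower in HNKO in 7 of 7 comparisons (-0.57 to -0.08). Taken as deviations from the group mean, Ghr ran with the summed hepatocyte markers in the 19 WT (r = 0.54) and the 19 HNKO libraries (r = 0.81). With the markers of cholangiocytes and oval cells it was at r = -0.04 in WT and -0.86 in HNKO, and with those of stellate and endothelial cells at -0.40 and -0.88. Leukocyte markers gave -0.27 and -0.67, and the summed clock genes gave 0.73 and 0.67. The differences between the genotypes in these values were not tested. The points share library and scaling, and each sum is weighted to its most abundant genes, which can differ between the genotypes. The part of these cell types in the difference of Ghr was not tested.

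Stat5b (ENSMUSG00000020919.11, chr11:100780731-100850724, minus strand) encodes the transcription factor downstream of the receptor. At day 3, WT libraries had 6.88, 6.48, 6.71, 6.97 and 6.54 log2 CPM and HNKO libraries 6.33, 6.19, 6.44, 6.79 and 6.37. At day 6, the values were 6.06, 6.35, 6.85 and 6.97 in WT and 6.36, 6.03, 6.24, 6.54 and 6.54 in HNKO. The groups overlapped at both days. At day 12, WT libraries had 6.63, 6.75, 6.28, 6.93 and 6.97, and HNKO libraries ranged from 6.18 to 6.91 with a median of 6.26. At day 21, WT libraries had 6.46, 6.66, 6.39, 6.51 and 6.58 and HNKO libraries 6.17, 6.32 and 6.09. All 3 HNKO libraries of day 21 thus lay below all 5 of WT, the smallest exact permutation p there being 0.0179, which Stat5b reached.

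The log2 fold changes of Stat5b were -0.29, -0.25, -0.33 and -0.33 along the days, with adjusted p-values in edgeR's test of 0.275, 0.340, 0.156 and 0.344. The value at day 6 ranged from -0.39 (without WT library 8) to -0.10 (without WT library 28). Its mean over the days was -0.30 (SE 0.08, 95% interval -0.46 to -0.14, edgeR adjusted p = 0.00351). Stat5b was lower in HNKO in 7 of 7 comparisons within the ranges of library numbers (-0.48 to -0.01). In WT and HNKO, the deviations of Stat5b were at r = -0.29 and 0.17 with hepatocyte markers, 0.37 and -0.25 with cholangiocyte markers, and 0.14 and -0.52 with stellate and endothelial markers (19 libraries each). With the summed clock genes they were at -0.77 and -0.17. The differences between the genotypes in r were not tested. Of the 51-base stretches of Stat5b, 10.8% also occur in other genes, chiefly its paralog Stat5a. At day 21, where Stat5b libraries did not overlap, Mup20 did not either, and these 2 of 10 genes compare with 13.9% of all tested genes. At days 3, 6 and 12, 0, 1 and 1 of the 10 genes were without overlap, against 4.11%, 12.8% and 4.79% of all genes.

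**Figure D2:**
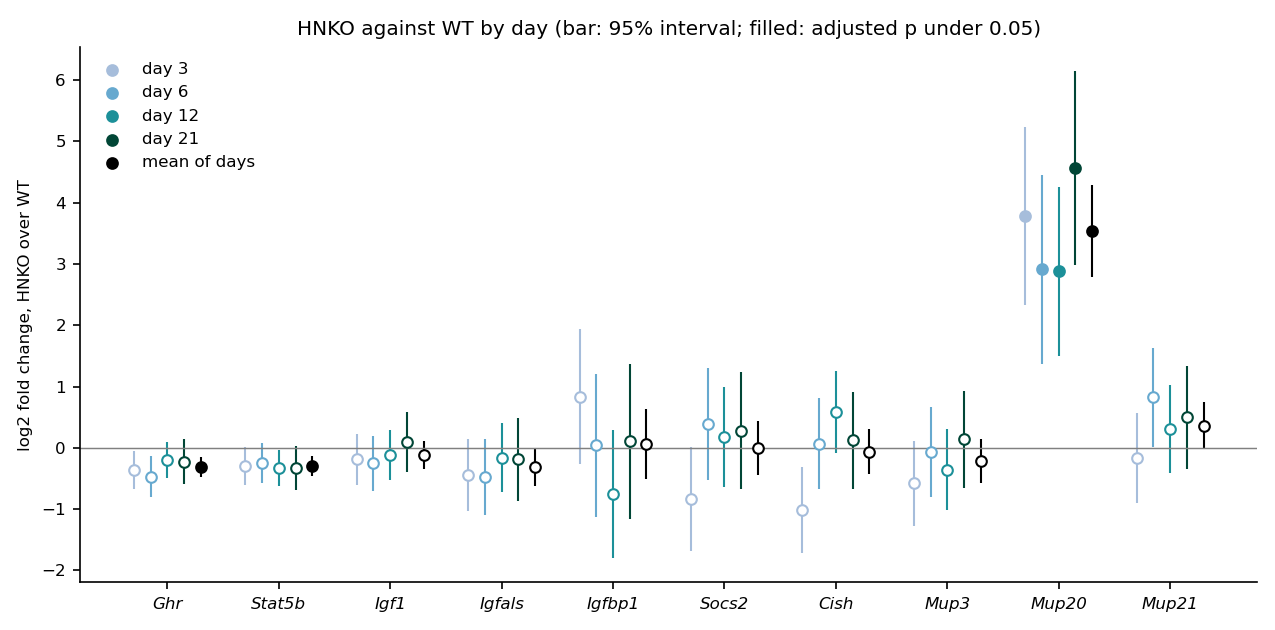
Log2 fold change of each gene in HNKO against WT at days 3, 6, 12 and 21 and for the mean of the days, from edgeR's fit, with bars for the 95% interval and filled points for an adjusted p under 0.05. Mup20 lies between 2.88 and 4.56 at all days, and Ghr at -0.31 and Stat5b at -0.30 are filled only for the mean of the days.

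The secreted products of the axis did not pass the threshold between the genotypes, except that Igfals did so in some of the alternative fits. Igf1 (ENSMUSG00000020053.18, chr10:87858265-87937042, plus strand), the growth factor itself, ranged from 8.52 to 9.99 log2 CPM over the 38 libraries, and its genotypes overlapped at each day. Its log2 fold changes were -0.19, -0.25, -0.11 and 0.09, with a mean of -0.12 (SE 0.11, 95% interval -0.34 to 0.10, edgeR adjusted p = 0.433). The antisense gene Igf1os overlaps it on the other strand, with a median of 107.5 counts per library.

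Igfals (ENSMUSG00000046070.9, chr17:24865997-24882010, plus strand) encodes the acid-labile subunit that holds IGF1 in a large complex in plasma. It ranged from 5.81 to 7.76 log2 CPM. At day 3, WT livers averaged 7.16 ± 0.35 (SD, n = 5) against 6.63 ± 0.64 (SD, n = 5) in HNKO livers. At day 6, the averages were 6.96 ± 0.31 (SD, n = 4) and 6.45 ± 0.48 (SD, n = 5). The groups overlapped at both days. The log2 fold changes were -0.45, -0.48, -0.16 and -0.19, and their mean of -0.32 (SE 0.15, 95% interval -0.63 to -0.01) did not pass the threshold (edgeR adjusted p = 0.0996). It was called lower with the clock gene score as a covariate (-0.35, edgeR adjusted p = 0.0385) and without HNKO library 4 (-0.38, edgeR adjusted p = 0.0417) or 32 (-0.38, edgeR adjusted p = 0.0338).

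Igfbp1 (ENSMUSG00000020429.7, chr11:7197782-7202546, plus strand) encodes an IGF-binding protein that insulin represses and fasting raises. It was among the most variable of the 10 genes between mice of the same group, from 4.88 to 8.62 log2 CPM over all libraries. WT livers alone spread from 5.07 to 8.46 at day 6 and from 5.90 to 8.62 at day 12. The log2 fold changes of 0.83 (SE 0.54), 0.04, -0.75 and 0.10 had no common sign, and that of day 12 ranged from -1.19 without HNKO library 35 to -0.25 without WT library 34 and was -0.10 with the clock gene score. The mean was 0.06 (SE 0.28, 95% interval -0.52 to 0.63, edgeR adjusted p = 0.901). Over the 38 libraries, the deviations of Igfbp1 ran against those of Igf1 (r = -0.72, with -0.78 in the 19 WT and -0.68 in the 19 HNKO libraries), and those of Igf1 and Igfals ran together (r = 0.80, with 0.75 and 0.86). These values share library and scaling.

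Socs2 and Cish encode inhibitors of the SOCS family, which growth hormone induces through STAT5 and which in turn dampen its signal. Socs2 (ENSMUSG00000020027.18, chr10:95385362-95417180, minus strand) ranged from 3.27 to 6.18 log2 CPM. Along the days its log2 fold changes were -0.84, 0.39, 0.17 and 0.28, with a mean of 0.00 (SE 0.22, 95% interval -0.44 to 0.44, edgeR adjusted p = 0.996). The genotypes overlapped at each day.

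Cish (ENSMUSG00000032578.7, chr9:107296026-107302784, plus strand) had 3.51, 5.68, 3.64, 4.02 and 3.98 log2 CPM in WT and 3.41, 3.07, 2.98, 3.73 and 3.69 in HNKO at day 3. Library 5, a WT liver, stood apart at 5.68. The difference of -1.01 log2 units (SE 0.35) did not pass the threshold in edgeR's test (adjusted p = 0.0799, exact permutation p = 0.0476 at 5 against 5) and was -0.40 without library 5. At day 6 the levels were 4.39, 3.65, 4.28 and 3.82 in WT and 4.28, 3.42, 3.53, 3.95 and 4.93 in HNKO. At day 12 WT livers had 3.96, 3.45, 3.76, 3.85 and 3.57 and HNKO livers 3.42 to 5.10 with a median of 4.15. The genotypes overlapped at both days, with log2 fold changes of 0.07 and 0.58.

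At day 21, Cish stood at 3.90, 5.14, 5.10, 5.14 and 4.51 log2 CPM in WT and at 5.09, 5.32 and 4.28 in HNKO, and the log2 fold change was 0.12. In WT, 4 of these 5 libraries lay above all WT libraries of days 3 to 12 other than library 5, and the genotypes overlapped. In the test of a day effect within HNKO, Cish was the 1 gene of 10 called, against 7.90% of all genes (edgeR F test, adjusted p = 0.0462), and its level at day 21 was 1.55 log2 units above day 3 in HNKO (SE 0.39, adjusted p = 0.0253). This call was lost in 20 of the 38 fits that each left out 1 library, in which the adjusted p of edgeR's test ranged from 0.0107 to 0.149, and with the clock gene score as a covariate (edgeR adjusted p = 0.132). Within WT, 0 of the 10 genes were called for a day effect, against 5.84% of all genes, and 4 had an unadjusted p under 0.05 in edgeR's test, beside 4312 of all 20297. A difference of the genotype effect between days was called for 0% of all genes in edgeR's F test, with 966 genes at an unadjusted p under 0.05. Among the 10, Cish had the 1 unadjusted p under 0.05, at 0.017. The genes Gm17040 and Gm17041 overlap Cish on the opposite strand with medians of 3 and 0 counts, and 9.28% of the 51-base stretches of Cish occur in other genes.

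STAT5 binds the palindrome TTCNNNGAA, which reads the same on both strands. Promoter windows of RefSeq (GRCm38.p6, 250 bases before to 50 bases after a start) were on hand for 8 of the 10 genes, and the motif was searched in them because these genes are known STAT5 targets or parts of its pathway. It occurred in 8.3% of all 32851 windows, and 150 windows (0.457%) held it more than once. The single window of Cish held 2 sites, at positions 251 and 262 of the window, where position 251 is the start itself, and 2 of the 3 windows of Igfals held 1 each, at positions 15 and 193. The sites are shown with the fixed bases of the motif in capitals.
Cish, chr9:107296654-107296683, plus strand: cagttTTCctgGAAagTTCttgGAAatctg
Igfals, chr17:24877603-24877632, plus strand: ataatTTCtcaGAAaagaggctgaggaata
Igfals, chr17:24878168-24878197, plus strand: aggtgTTCctaGAAgaggccctgggggagg
These letters were in 0 windows of Ghr, Stat5b, Igf1, Igfbp1, Mup3 and Mup21. A match is a description of the sequence, and binding was not measured.

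Mup3, Mup20 and Mup21 lie near each other on chromosome 4, with all other listed Mup genes but the pseudogene Mup-ps22 on chromosome 11, and many are close copies, so reads can fit several of them. Mup20 (ENSMUSG00000078672.2, chr4:62050234-62054158, minus strand) shared 89.1% of its coding bases with Mup3 (ENSMUSG00000066154.11, chr4:62083476-62087342, minus strand), 88.5% with Mup21 (ENSMUSG00000066153.2, chr4:62147932-62150863, minus strand) and 91.5% with Mup17 (chr4:61591929-61595871, minus strand), while Mup3 and Mup21 shared 96.3%. Of the 51-base stretches, the read length, 50.1% of Mup20, 18.8% of Mup21 and 12.7% of Mup3 occur in another gene. Most of the overlap of Mup20, 47.8%, is with the pseudogene Mup-ps19, which had 10 counts over the 38 libraries. The stretch of 90 coding bases below, of which each lies within 1 exon, is shown because it holds bases that tell the copies apart. Capitals mark, in Mup20, the bases that differ from at least 1 of the other genes and, in the others, the bases that differ from Mup20.
Mup20, chr4:62053481-62053570, minus strand: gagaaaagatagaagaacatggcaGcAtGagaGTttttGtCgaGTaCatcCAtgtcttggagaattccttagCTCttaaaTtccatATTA
Mup3, chr4:62086801-62086890, minus strand: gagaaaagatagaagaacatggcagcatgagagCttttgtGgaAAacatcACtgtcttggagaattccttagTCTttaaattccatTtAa
Mup21, chr4:62150196-62150285, minus strand: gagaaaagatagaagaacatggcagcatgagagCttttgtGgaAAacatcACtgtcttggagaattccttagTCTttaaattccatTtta
Mup17, chr4:61595194-61595283, minus strand: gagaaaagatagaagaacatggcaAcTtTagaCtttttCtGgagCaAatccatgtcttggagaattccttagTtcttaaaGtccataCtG
Over this stretch, Mup3, Mup21 and Mup17 differ from Mup20 at 11, 10 and 12 bases. How the counting of the authors treated reads that fit several genes is not stated, so a count of 1 Mup gene may hold reads of another or lack reads that several genes share.

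Mup20 had 4.69, 4.55, 4.15, 4.66 and 4.95 log2 CPM in WT and 9.14, 8.91, 4.26, 6.19 and 9.14 in HNKO at day 3. Library 4, an HNKO liver, lay within the WT range, and the other 4 lay above it. At day 6, WT libraries had 3.84, 3.82, 3.54 and 3.98 and HNKO libraries 5.36, 7.12, 8.03, 5.04 and 5.54. At day 12, WT had 2.78, 3.31, 3.67, 4.74 and 2.93, and the 6 HNKO libraries ranged from 5.41 to 7.72 with a median of 5.85. At day 21, WT had 3.84, 3.24, 3.92, 3.51 and 2.93 and HNKO had 9.24, 5.38 and 7.43. From day 6 on, all HNKO libraries lay above all WT libraries of the day, and they spread over more than the gap between the groups.

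The log2 fold changes of Mup20 were 3.79 (SE 0.71, 13.8-fold, adjusted p = 0.00311), 2.91 (SE 0.76, 7.52-fold, adjusted p = 0.00975), 2.88 (SE 0.68, 7.36-fold, adjusted p = 0.00983) and 4.56 (SE 0.78, 23.6-fold, adjusted p = 0.00153) in edgeR's test at days 3, 6, 12 and 21. On the mean of the days Mup20 was 11.6-fold higher (3.53 log2 units, SE 0.37, edgeR adjusted p = 9.49e-09). Exact two-sided permutation tests gave p = 0.0397 and 0.0159 at days 3 and 6, and the smallest p that the group sizes allow, 0.00216 and 0.0179, at days 12 and 21. Without HNKO library 29 the difference at day 6 was 2.25 (edgeR adjusted p = 0.0613), and without HNKO library 37 that at day 21 was 3.23 (edgeR adjusted p = 0.110), and neither passed the threshold. With both libraries left out, day 6 passed again (2.25, edgeR adjusted p = 0.0428), so the call at day 6 without library 29 depended on the fit. Within the ranges of library numbers, Mup20 was higher in HNKO in 7 of 7 comparisons, by 1.80 to 4.13 log2 CPM. The test of a day effect within HNKO gave an adjusted p of 0.0878 in edgeR.

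Mup20 was also one of the genes that differed most between mice of 1 group, chiefly among HNKO livers. Its pooled within-group SD of 1.18 log2 CPM was at the 99.0 percentile of all tested genes, where the median gene had 0.32. Igfbp1 followed at 0.93 (97.1 percentile) and Socs2 at 0.70 (90.2 percentile). Mup21, Mup3, Cish and Igfals had 0.61, 0.59, 0.55 and 0.48, Igf1 0.35, and Ghr and Stat5b 0.25 each. By group, the SD of Mup20 was 2.21, 1.29, 0.97 and 1.93 in HNKO at days 3, 6, 12 and 21. In WT it was 0.29, 0.18, 0.78 and 0.41. In the 19 HNKO libraries, deviations of Mup20 from the group mean ran with the summed cholangiocyte and oval cell markers (r = 0.80) and the stellate and endothelial markers (r = 0.85) and against the hepatocyte markers (r = -0.77). In the 19 WT libraries these values were 0.32, -0.64 and -0.22. All of them share library and scaling. The part of these cell types in the level of Mup20 was not tested.

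Mup3 and Mup21 did not pass the threshold between the genotypes. Mup3, the most abundant gene of the 10, ranged from 9.22 to 11.91 log2 CPM over the 38 libraries. At day 3, WT livers averaged 11.62 ± 0.17 (SD, n = 5) against 10.91 ± 0.70 (SD, n = 5) in HNKO livers, and the groups overlapped. The log2 fold changes of -0.58, -0.07, -0.35 and 0.14 gave a mean of -0.22 (SE 0.18, 95% interval -0.58 to 0.14, edgeR adjusted p = 0.367). Mup21 ranged from 1.30 to 3.84 log2 CPM, with log2 fold changes of -0.17, 0.83, 0.31 and 0.49 and a mean of 0.36 (SE 0.19, 95% interval -0.02 to 0.75, edgeR adjusted p = 0.138). Deviations of Mup3 ran with those of Ghr (r = 0.81, with 0.64 in the 19 WT and 0.84 in the 19 HNKO libraries). Those of Mup20 ran against Ghr in HNKO (r = -0.78) but not in WT (r = 0.26), and the difference between these values was not tested.

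**Figure D3:**
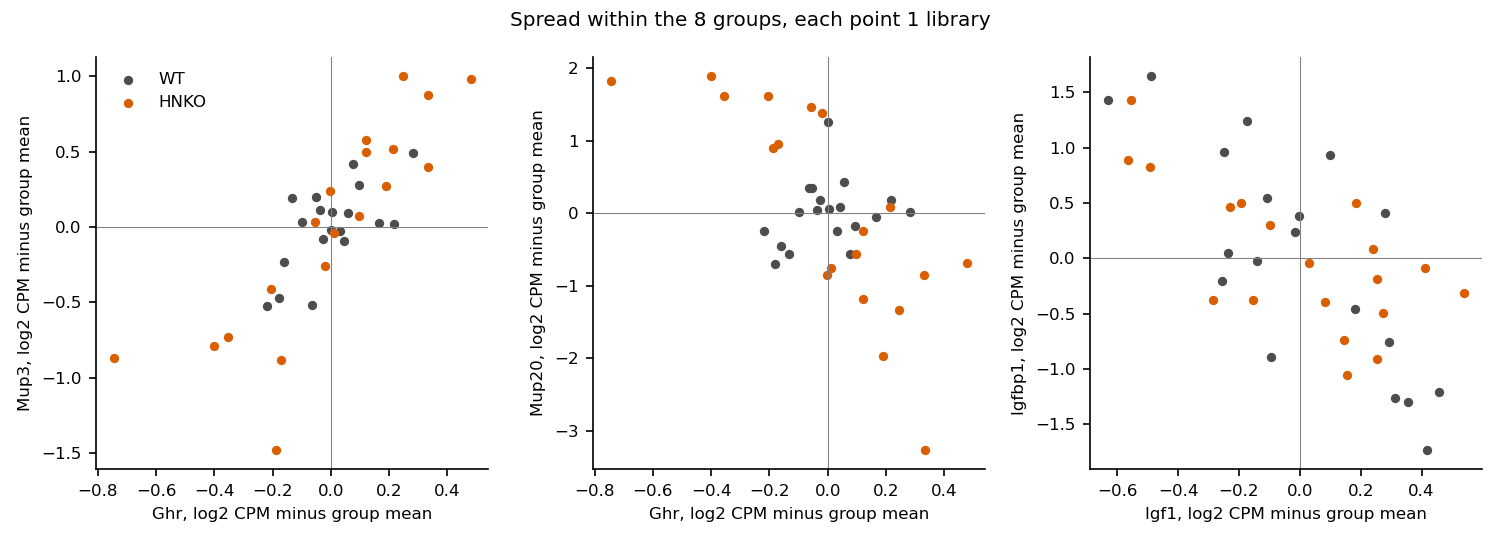
Deviations of log2 CPM from the group mean in the 38 libraries, WT and HNKO in separate colours, for Mup3 against Ghr (left), Mup20 against Ghr (middle) and Igfbp1 against Igf1 (right). Points of both genotypes run upward in the left panel (r = 0.81) and downward in the right panel (r = -0.72), and in the middle panel the HNKO points run downward (r = -0.78) while the WT points do not (r = 0.26).

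The table listed 49 Mup genes and pseudogenes, of which 46 were not among the 10. Of these 46, 21 passed the filter (14 coding genes and 7 pseudogenes), and 4 had 0 counts in the 38 libraries. While Mup20 was higher in HNKO, 13 of the 21 were called lower and 0 higher on the mean of the 4 days in edgeR's test, against 17.3% lower among all genes, with a median log2 fold change of -1.16 beside -0.01. Of the 51-base stretches of these 21 genes, 3.27% (Mup6) to 100% (Mup15, Mup19 and Mup22) occur in other genes, so their values are not independent of each other. At the single days 2, 3, 11 and 1 of the 21 were called lower (days 3, 6, 12 and 21), against 1.71%, 4.37%, 3.27% and 0.916% of all genes, with medians of -0.95, -0.12, -2.13 and -0.85. All calls at days 3, 6 and 21 and 6 of the 11 at day 12 were pseudogenes. The coding genes of day 12 were Mup17 at -4.03, Mup15 at -3.94, Mup18 at -2.97, Mup16 at -2.89 and Mup2 at -1.97 log2 units. The pseudogene Mup-ps12 was the one called at all 4 days, with -2.40 at day 3 and -2.65 at day 21. Its counts per HNKO library were low, at 4 to 23 on day 3 and 5 to 27 on day 21. Of its 51-base stretches, 75.8% occur in other genes. Mup-ps7 and Mup9, also called lower on the mean of the days, had at most 31 and 36 counts in any library.

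Mup17 showed the opposite order of Mup20 at day 12, with 4.59 to 6.73 log2 CPM in the 5 WT and -1.20 to 2.83 in the 6 HNKO libraries, so that the groups did not overlap. At day 6 its HNKO libraries spread from 0.65 to 6.86, around the 5.56 to 6.28 of WT. Mup2 had 2.07 to 2.99 in WT and -0.66 to 1.71 in HNKO at day 12, also without overlap. The count of day 3 rested on single libraries, since it was 0 without HNKO library 2, 3 or 23, 1 without any of 16 others and 9 without HNKO library 22. That of day 6 was 1 without WT library 27. That of day 21 was 0 without HNKO library 37 or 38 or WT library 19 or 41, 2 without HNKO library 29 and 5 without HNKO library 40. Of all counts on Mup genes, Mup20 took 0.299% to 1.27% in the WT libraries and 0.729% to 37.2% in the HNKO libraries. These are shares of counts and not of Mup RNA, since reads that fit several genes may be missing or misplaced. The median share of Mup20 in HNKO was 22.3%, 1.27%, 3.25% and 6.26% at days 3, 6, 12 and 21, beside 0.714%, 0.640%, 0.454% and 0.621% in WT. Mup3 took 61.4% to 96.9% of Mup counts over all libraries.

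**Figure D4:**
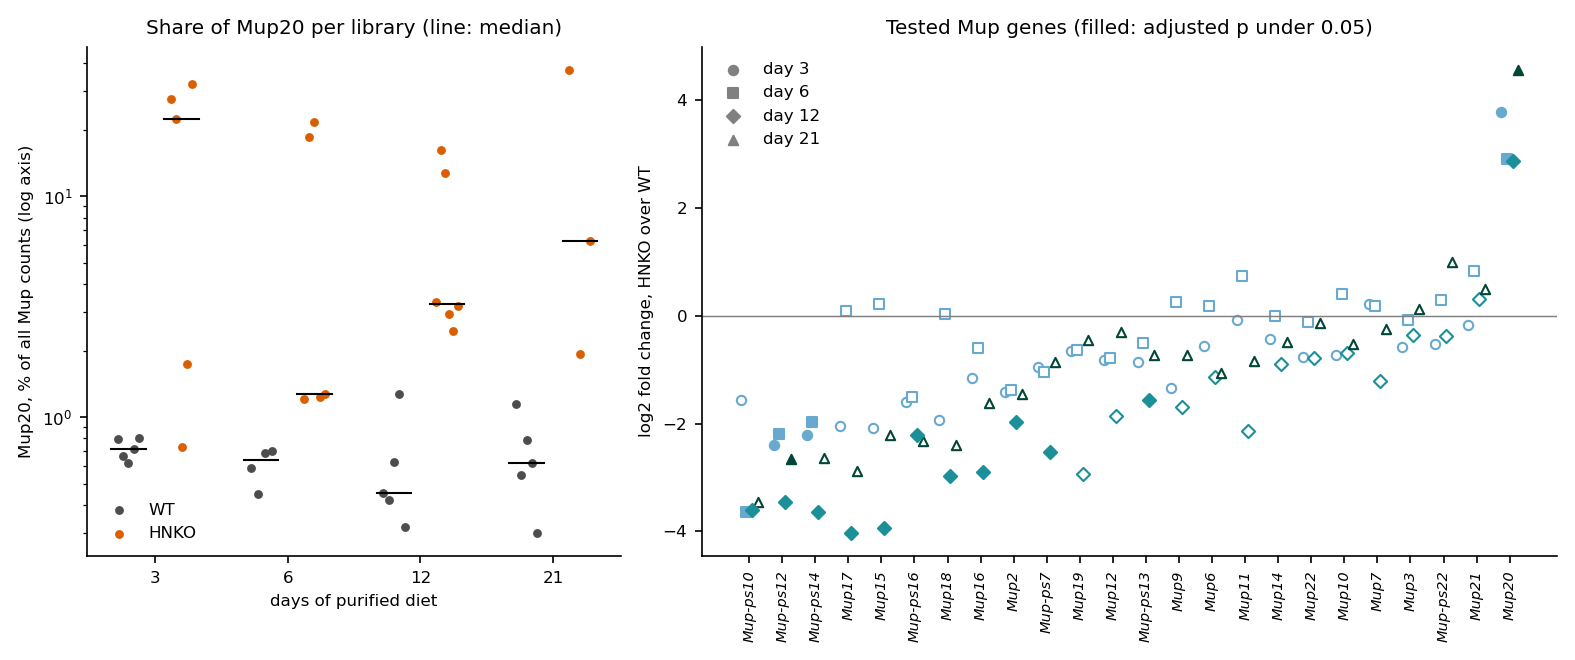
Left, share of all Mup counts taken by Mup20 in each library, in percent on a log axis, by day of PD feeding, with lines at the group medians. Right, log2 fold change of each tested Mup gene in HNKO against WT at the 4 days, filled where the adjusted p is under 0.05. The share of Mup20 reaches 37.2% in an HNKO liver but at most 1.27% in WT, and Mup20 is filled above 0 at each day while the other filled points lie below 0.

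Other genes that growth hormone sets in a sex-dependent way were read from lists of textbook examples, chosen with earlier results of these data known. Some of the female-biased genes are close relatives within the Cyp2b and Cyp3a families, so their calls are not independent of each other. Of 22 genes that are higher in female liver, all tested, 16 were called lower in HNKO on the mean of the 4 days in edgeR's test and 1 higher, against 17.3% and 19.2% of all genes, with a median log2 fold change of -1.23 beside -0.01 over all genes. Largest among the named ones was Sult2a1, a sulfotransferase of steroids and bile acids, at -3.47. Hao2 (hydroxy acid oxidase) was at -1.93, Acot3 (peroxisomal acyl-CoA thioesterase) at -1.90 and the fatty acid hydroxylase Cyp4a10 at -1.68. The cytochrome P450 genes Cyp17a1 at -1.30, Cyp2b13 at -1.16 and Cyp2b9 at -0.73 were lower as well, as was Cyp2a4, which was at -1.57 at day 12. The 1 called higher was Prom1 at 0.89, named after its value was seen, which is also known as a marker of progenitor and ductal cells.

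At the single days, 5, 4, 3 and 2 of the 22 were called lower, against 1.71%, 4.37%, 3.27% and 0.916% of all genes, with medians of -1.32, -0.91, -0.94 and -1.23. These counts moved with single libraries. At day 3 the count was 0 without HNKO library 2 or 3, 1 without HNKO library 23 or WT library 5 or 24, 2 without HNKO library 22 or WT library 25, and 10 without HNKO library 4. At day 12 it was 1 without HNKO library 13 or 35 and 6 without HNKO library 4, and at day 21 it was 0 without HNKO library 37 or WT library 19 or 41, 1 without HNKO library 38 or 40, and 5 without HNKO library 4. The count of 16 on the mean of the days moved by less than 1.5 times in any fit.

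Genes that are higher in male liver gave no common direction over the days. Of 18, 15 were tested, and 5 were called higher and 2 lower on the mean of the 4 days, against 19.2% and 17.3% of all genes, with a median of 0.12. The medians at the single days were -0.36, 0.27, 0.01 and 0.72, with 4, 8, 8 and 13 of the 15 genes above 0. Among those called at a single day, Cyp2u1 was higher (0.91 at day 3), Gstp1, a glutathione transferase, was higher (0.60 at day 6), Elovl3, a fatty acid elongase, was lower (-1.97 at day 3), and Cyp8b1, a sterol hydroxylase of bile acid synthesis, was lower (-1.24 at day 6). Cyp4a12a, Cyp4a12b and Moxd1 did not pass the filter.

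**Figure D5:**
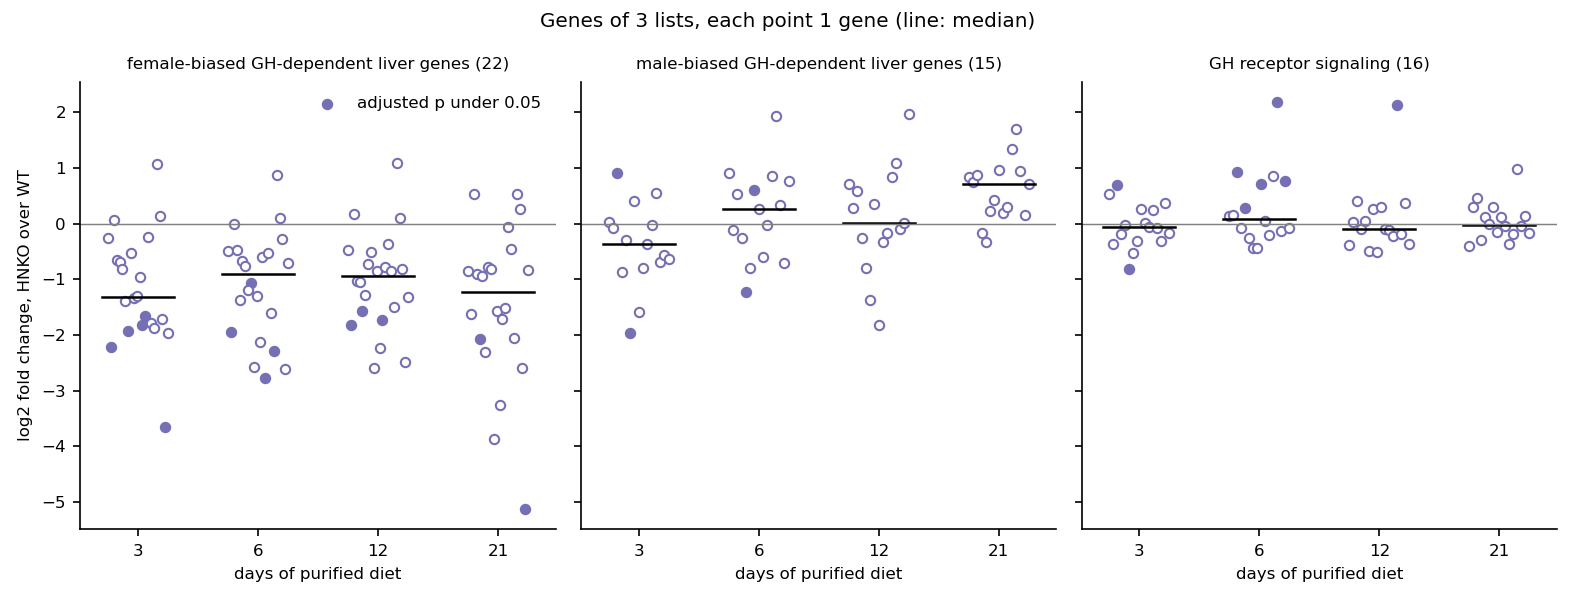
Log2 fold change in HNKO against WT at days 3, 6, 12 and 21 for the tested genes of 3 lists (22 female-biased, 15 male-biased and 16 receptor signaling genes), 1 point per gene, filled where the adjusted p is under 0.05, with lines at the list medians. The female-biased genes lie mostly below 0 at each day (medians -1.32 to -0.91), and the other lists lie on both sides of 0.

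Of 16 genes of growth hormone receptor signaling, 4 were higher and 4 lower on the mean of the days, where 19.2% of all tested genes were higher and 17.3% lower, and the median was -0.03. On the mean of the days, these shares are near those of all genes. The numbers called higher were 1, 5, 1 and 0 of the 16 at days 3, 6, 12 and 21, against 2.95%, 8.42%, 4.56% and 2.21% of all tested genes. Those called lower were 1, 0, 0 and 0, against 1.71%, 4.37%, 3.27% and 0.916%. Socs3, an inhibitor that cytokines of the IL-6 family induce strongly, was higher by 2.19 log2 units at day 6 and 2.13 at day 12. Stat3 (0.77), the phosphatase Ptpn1 (0.71), the adaptor Grb10 (0.93) and the kinase Jak2 (0.29) were higher at day 6, and Grb10 also at day 3 (0.69). Lifr, a receptor of the IL-6 family, was lower at day 3 (-0.82). In the same livers, 3, 14, 9 and 1 of 17 acute phase and IL-6 target genes were higher in HNKO at the 4 days, against 2.95%, 8.42%, 4.56% and 2.21% of all tested genes, among them Saa1 by 5.66 and Saa2 by 6.03 log2 units at day 6. The part of this response in the levels of the receptor pathway was not tested.

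Of 14 tested genes for IGF binding and IGF receptors, 4 were higher and 3 lower on the mean of the days, near the 19.2% and 17.3% of all tested genes, and the median was -0.03. Igfbp2, an IGF-binding protein, was lower at day 3 (-0.99) and day 12 (-1.01), whereas Pappa, a protease of IGF-binding proteins, and Stc2, its inhibitor, were higher at day 6 (1.73 and 1.85). Igf2 and Pappa2 did not pass the filter. Of 11 genes that respond to insulin and FOXO1, as Igfbp1 does, 2 were lower on the mean of the days, near the 17.3% of all tested genes, with a median of -0.26. These were Angptl4, an inhibitor of lipoprotein lipase (-1.12 at day 12), and Ppargc1a, a coactivator of gluconeogenic genes (-0.61 at day 6).

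Markers of cell types moved in the same libraries. All 8 tested cholangiocyte and oval cell markers were higher on the mean of the days, led by Cftr at 2.92 and Spp1 at 2.71 log2 units, and 7, 7, 5 and 4 were higher at the single days. Of all tested genes, 19.2% were higher and 17.3% lower on the mean of the days, and 2.21% to 8.42% were higher at a single day. Of 12 hepatocyte markers, 6 were lower on the mean of the days (median -0.33), among them Alb at -0.46. Of 10 leukocyte markers 6 were higher, and of 11 stellate and endothelial markers 6 were higher and 1, Kdr, was lower.

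Likeness to each gene was measured as Pearson's r of deviations from the group mean over the 38 libraries, among all tested genes. The closest to Ghr were Aldh8a1, Serpina1b and Serpina1d, each at 0.88. The closest to Stat5b was Stard13 (0.84), to Igf1 Acsm1 (0.87), to Igfals Ggact (0.91) and to Igfbp1 Nudt4 (0.79). Socs2 was nearest to 5730420D15Rik (0.84) and Ugcg (0.82), and Cish to Rgs3 (0.69). Mup3 was nearest to Ugt2b1 (0.91), Sult2a8 (0.88) and Mup16 (0.86), Mup20 to Haus8 (0.87), Uap1l1 (0.86) and Osbpl3 (0.84), and Mup21 to 4933404O12Rik (0.74). Socs2 and Cish were at 0.54 with each other. All these values share libraries, depth and scaling, and describe likeness in these 38 livers. They were not split by genotype, and the spread of Mup20 lay mostly among the HNKO livers.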

How the data were processed

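Livers of 40 mice were sequenced (rRNA-depleted TruSeq Stranded total RNA, paired 51-base reads). The authors aligned reads to GRCm38 with STAR 2.7.2b, counted fragments with both ends aligned on GENCODE genes with featureCounts 1.6.4 and deposited raw counts per gene, without normalization. The strand setting and the use of multi-mapping reads are not given in the sources used here. The table held 0 columns without a sample.

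Groups were taken from the labels. In edgeR 4.0.16 (R 4.3.3), genes were filtered (minimum count 10, total 15, proportion 0.7), normalized by TMM and modelled over 38 libraries with a separate mean for every combination of genotype and day, using the legacy quasi-likelihood computation. Adjustment was by Benjamini-Hochberg across the 20297 genes of a comparison, with a threshold of 0.05. For log2 CPM, a prior count of 2 was added. Single genes were compared by exact permutation tests, whose p-values are unadjusted. Where nothing says otherwise, p-values measure the spread between mice. The scripts were tested on simulated data.

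The 10 genes and all gene lists were chosen with earlier results of these data known. Named in the text are the 10 genes, Nampt, up to 8 genes per list called at 1 or more days, Mup genes that passed the filter, and the closest of up to 3 genes by likeness. Alternatives were DESeq2 1.42.0, its size factors, edgeR's newer computation, no filter, all 40 libraries, covariates for library number and clock gene score, fits of the groups of 1 day, and leaving out libraries.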

Additional observations from a re-analysis of the deposited data

Results flagged for a closer look

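In groups of 4 to 10 libraries, 4 of the 70 sets of values examined held a library far from the others, and chance flags about 1 in 20. These were Igfbp1 at 7.99 log2 CPM in HNKO library 35 of day 12 (next 6.51), Socs2 at 5.45 in HNKO library 6 of day 6 (next 4.82), Cish at 5.68 in WT library 5 of day 3 (next 4.02) and Mup21 at 1.84 in WT library 24 of day 3 (next 3.24). Of these, library 5 bears on the difference of Cish at day 3, which was -1.01 with it and -0.40 without it.

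The 2 HNKO libraries of day 21 that failed the quality control of the study entered no comparison. Scaled with all 40 libraries, Mup20 stood at 5.03 log2 CPM in library 17 and at 6.90 in library 18, both above the highest WT library of day 21 at 3.92. Ghr was at 9.48, within the WT range of 9.35 to 9.51, and at 8.77, below it. Stat5b was at 6.13 and 5.97, both below the lowest WT library at 6.40. Mup21 was at 3.50, above the WT range of 1.83 to 2.92, and at 1.26, below it.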

How the results depend on the processing

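The calls of Mup20 at days 3 and 12 and those of Mup20, Ghr and Stat5b on the mean of the days were kept in every alternative run. The number of the 10 genes called at day 6 was 2 with edgeR's newer computation, with the clock gene score and in DESeq2, each adding Ghr (adjusted p = 0.0491, 0.0176 and 0.0382). On the mean of the days it was 4 with the clock gene score and without HNKO library 4 or 32, each adding Igfals (edgeR adjusted p = 0.0385, 0.0417 and 0.0338). It was 2 at day 3 in DESeq2, adding Cish (adjusted p = 0.0406). For the day effect it was 0 in HNKO with the library number as a covariate (Cish, edgeR adjusted p = 0.0510), where the call of Cish was also lost with the clock gene score (0.132, with Igf1 called instead at 0.00993) and without libraries 29 and 37 (0.115, with Mup20 called instead at 0.0347), and 2 in WT with the clock gene score (Igf1 and Mup21, edgeR adjusted p = 0.0312 and 0.00819). Leaving out 1 library gave 1 to 2 genes at day 3, 0 to 2 at day 6, 0 to 1 at day 21, and 0 to 1 in WT and 0 to 2 in HNKO for the day effect. Without HNKO libraries 29 and 37 together, chosen after seeing the data, 0 genes were called at day 21 (Mup20 3.23, edgeR adjusted p = 0.0685).

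Female-biased genes called lower numbered 2 (all 40 libraries) and 3 (groups of 1 day alone) at day 3, 6 (clock gene score) and 5 (groups of 1 day) at day 12, and 6 at day 21 in DESeq2, with all 40 libraries and in the groups of 1 day, or 0 without libraries 29 and 37. Leaving out 1 library gave 0 to 10, 1 to 6 and 0 to 5 at days 3, 12 and 21. Other Mup genes called lower numbered 1 at day 3 with all 40 libraries, the newer computation or no filter, and 0 at day 6 in the groups of 1 day. At day 21 they numbered 3 (DESeq2), 6 (all 40), 2 (clock gene score), 4 (library number) and 0 (without 29 and 37). Leaving out 1 library gave 0 to 9, 1 to 4 and 0 to 5 at days 3, 6 and 21.

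Several values of single days that were not called moved by over 1.5 times when 1 library was left out, and signs turned only for values that were not called. The mean of Socs2 was -0.000358 (DESeq2 size factors), -0.0249 (all 40 libraries), -0.000749 (library number), -0.00817 (clock gene score) and -0.000268 (DESeq2). Mup3 at day 21 was -0.14 with all 40 libraries. Igfbp1 at day 21 was -0.43 (library number), -0.0488 (clock gene score) and -0.38 (without libraries 29 and 37), and Mup21 at day 12 was -0.0670 (clock gene score). Without libraries 29 and 37, Igfbp1 at day 6 was -0.22 and on the mean -0.12, Mup3 at day 6 was 0.14 and Igfals at day 21 was 0.0665. Leaving out 1 library gave for Socs2 -0.10 to 0.0690 on the mean and -0.24 to 0.39 at day 12, for Cish -0.24 to 0.21 at day 6, -0.0731 to 0.39 at day 21 and -0.14 to 0.0924 on the mean, for Igf1 -0.0131 to 0.32 at day 21, and for Igfals -0.41 to 0.0603 at day 12 and -0.32 to 0.0665 at day 21. It gave for Igfbp1 -0.30 to 0.80 at day 6, -0.38 to 0.46 at day 21 and -0.0529 to 0.25 on the mean, for Mup21 -0.0658 to 0.45 at day 12, and for Mup3 -0.31 to 0.17 at day 6 and -0.11 to 0.45 at day 21. The cause was not tested. A prior count of 0.5 moved no level by more than 0.0320. No paired analysis was possible because the library numbers differ between all libraries and the labels tie no WT to an HNKO mouse.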
